A study of Drosophila melanogaster with 3 samples.

Results

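ZLD binding at cycle 13 was compared with ZLD binding at cycle 8, using only the 2 ChIP-seq libraries that carry these labels out of 3 in the series. The cycle 13 library came from Oregon R embryos of mitotic cycles 13 and 14, and the cycle 8 library from Oregon R embryos of mitotic cycles 8 and 9. Both pools were sorted by hand on morphology, so each held embryos of adjacent cycles. The chromatin used was 6.6 µg at cycle 13 and 3.7 µg at cycle 8, and both were precipitated with the same affinity-purified anti-ZLD antibody, from which antibodies against the zinc fingers had been removed. The sites compared were the peaks of the deposited cycle 13 and cycle 8 lists, with interval midpoints joined wherever they lay within 150 bp. This gave 14773 sites, of 16200 obtained when the late cycle 14 list was joined in the same way. There was 1 library per stage, so stage and library cannot be told apart, and every difference below is a size without a test.

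ZLD (Zelda) is a zinc-finger transcription factor whose mRNA is loaded into the egg, and which binds a family of short motifs found upstream of the first genes that the embryo transcribes. It is needed for the activation of the zygotic genome and is known for binding many enhancers and promoters before these are active. The embryo divides as a syncytium through the cycles compared here, and cells form only in cycle 14, when the patterning genes downstream of the first regulators are strongly transcribed.

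The cycle 13 library held 18870755 mapped reads and the cycle 8 library 13496488. Counting each start on a given strand once left 9597918 positions at cycle 13 (50.9% of the reads) and 3160282 at cycle 8 (23.4%), which is 1.97 reads per occupied position at cycle 13 and 4.27 at cycle 8. The signal of a site is the number of reads, extended to 150 bp, that overlapped its midpoint or the 150 bp on either side, scaled to 10000000 reads in the library. One read was worth 0.530 units at cycle 13 and 0.741 at cycle 8. Sites together took up 49.5% of the cycle 13 reads (exact 95% binomial interval 49.45 to 49.49) and 42.9% of the cycle 8 reads (42.92 to 42.97). In windows of the same size away from sites on the chromosome arms the median signal was 11.1 at cycle 13 and 14.1 at cycle 8. All intervals given here cover counting error only, and copied reads make them too narrow.

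The lists shared close to 1 site in 2. Of the 14773 sites, 3399 (23.0%) belonged to the cycle 13 list only, 4302 (29.1%) to the cycle 8 list only and 7072 (47.9%) to both, with an exact 95% binomial interval of 47.1 to 48.7 for the last. Sharing rose with peak height. Of the cycle 13 peaks in the highest quartile of heights 95.2% were also in the cycle 8 list, against 44.7% of those in the lowest quartile. The same shares of the cycle 8 list were 95.1% and 31.3%. The median signal of sites in both lists was 280.6 at cycle 13 and 255.6 at cycle 8. Sites of the cycle 13 list alone had medians of 148.9 at cycle 13 and 54.1 at cycle 8, and sites of the cycle 8 list alone 53.0 at cycle 13 and 125.2 at cycle 8. The lists were called from these same reads, so the direction of these last values follows from the choice, but in both groups the lower library still lay above its signal away from sites. The lists also differed in what came after. A late cycle 14 peak lay within 150 bp of 82.5% of the sites in the cycle 13 list alone, of 72.4% of those in both lists, and of 1.44% of those in the cycle 8 list alone.

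**Figure D1:**
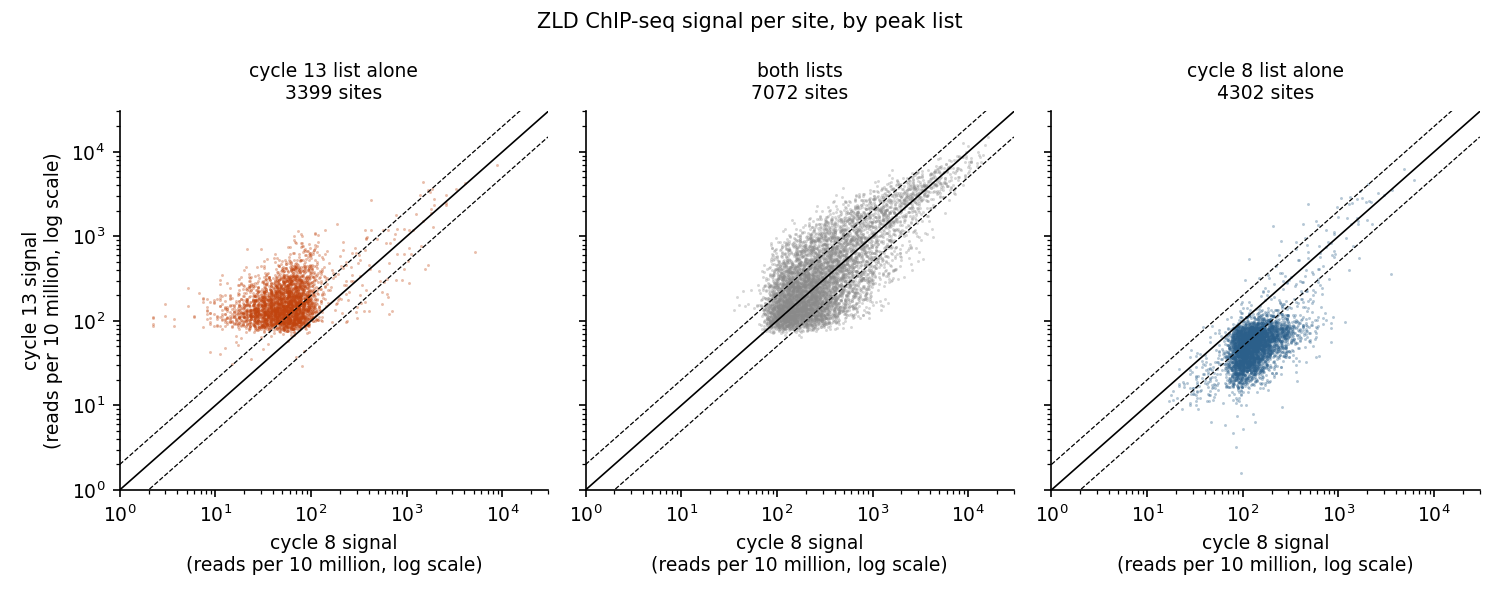
Signal of each ZLD site at cycle 13 (vertical axis) and cycle 8 (horizontal axis), in reads per 10000000 on log scales, with 1 point per site and 1 panel per list membership. The solid line marks equal signal and the dashed lines a 2-fold difference; the 3399 sites of the cycle 13 list alone and the 4302 of the cycle 8 list alone lie mostly under a signal of 1000, and the strongest sites of both lists lie near the line.

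Across all sites the median log2 ratio of cycle 13 to cycle 8 signal was -0.02, with quartiles of -1.06 and 1.11. A signal higher at cycle 13 by 2-fold or more was found at 4022 sites (27.2%), a lower one at 3911 (26.5%), and 6840 sites lay within 2-fold. The cycle 13 list alone gave 2560 of the rises, and the cycle 8 list alone 2953 of the falls. These sites entered through the library where they are high, so their direction follows from the choice. Of the 7072 sites in both lists 20.4% were higher and 13.2% lower. Large rises outnumbered large falls. Sites higher by 4-fold or more numbered 1494 and those lower by 4-fold or more 887, and at 8-fold or more there were 272 and 65. Strong sites leaned to cycle 13. Of the 2963 sites on the chromosome arms with a signal of 500 or more in either library, 1029 were higher at cycle 13 by 2-fold or more (34.7%) and 453 lower (15.3%), with a median log2 ratio of 0.48. In the lowest decile of sites by the geometric mean of both signals, 36.3% were higher and 54.3% lower. In the highest decile 24.4% were higher and 7.31% lower. A site needed a peak in only 1 library, so a low mean favours sites high in 1 library and low in the other. Of the 1478 sites in the lowest decile 140 lay within 2-fold. The lean of weak sites to cycle 8 cannot be told apart from the longer cycle 8 list, which alone held 4302 sites against 3399.

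The direction at strong sites depended on how copied reads were treated. With 1 read kept per position and strand, the median log2 ratio of the 2963 strong sites was -0.46 in place of 0.48. A window can then hold at most 900 reads, and 479 sites at cycle 13, against 61 at cycle 8, stood above 80% of this limit. The median number of distinct read positions per site was 180 at cycle 13 and 51 at cycle 8. At the strongest sites described below such log2 ratios were lower, as at the promoter of ftz, where almost equal signals of 6509 at cycle 13 and 6492 at cycle 8 became a log2 ratio of -1.31. Values with 1 read per position are therefore given below beside the lists whose median changed in sign and beside the largest rises and falls. Under that setting 22.9% of all sites were higher by 2-fold or more and 20.4% lower. Scaling each library by its reads outside sites would add 0.18 to the log2 ratios.

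The same direction was seen, more shallowly, around the sites that were higher or lower. These groups were chosen by the ratio over the site itself, so the larger value there follows from the choice. Isolated sites that were higher at cycle 13 had a median log2 ratio of 1.72 over the site, of 0.52 at 500 bp and of 0.21 at 1000 bp. Isolated sites that were lower had -1.59 over the site, -0.70 at 500 bp and -0.52 at 1000 bp. Sites within 2-fold had -0.11, -0.25 and -0.21 at the same distances, near the -0.30 of the windows between sites on the arms.

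**Figure D2:**
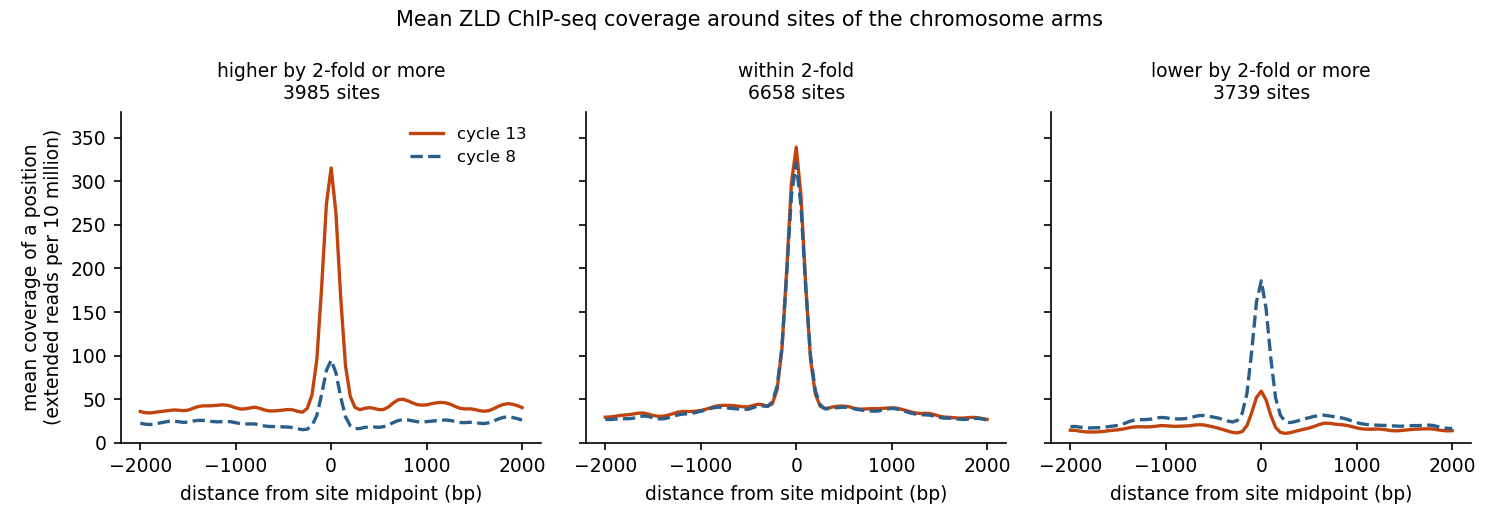
Mean coverage by extended reads, per 10000000 reads, at positions up to 2000 bp from the midpoint, for sites of the chromosome arms that were higher, within 2-fold or lower at cycle 13. Solid lines show cycle 13 and dashed lines cycle 8; the panels hold 3985, 6658 and 3739 sites, were sorted by the ratio they show, and differ most within about 150 bp of the midpoint.

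The strongest sites of the genome were bound in both libraries and differed by less than 2-fold. The highest of all was an intergenic site on 3L (19549831 to 19550160, dm3), nearest the start of CG9300, with a signal of 14987 at cycle 13 and 16252 at cycle 8 (log2 ratio -0.12). A second site of the same locus, at 19555520, had 12005 at cycle 13 and 14948 at cycle 8. The next were an intronic site nearest Taf4, which encodes a subunit of the general transcription factor TFIID, with 9878 at cycle 13 and 12734 at cycle 8, and an intronic site nearest chn, a zinc-finger gene of the nervous system, with 9165 at cycle 13 and 14167 at cycle 8. The fifth was an intergenic site nearest os, which encodes a ligand of the JAK/STAT pathway, with 9233 at cycle 13 and 12989 at cycle 8. All 5 were lower at cycle 13, by log2 values of 0.12 to 0.63, and none by 2-fold. Among the 200 highest sites, those nearest to an equal signal included the promoter of the pair-rule gene ftz on 3R (2689611 to 2690020).

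The largest rises among sites of the arms with a signal of 500 or more had little cycle 8 signal. A site on 3R (15167491 to 15167930) had a signal of 700.0 at cycle 13 (Poisson interval 662.8 to 738.8) and 21.5 at cycle 8 (14.4 to 30.9), against the 14.1 found away from sites. This is a log2 ratio of 5.03 (4.50 to 5.61). Of the 10 largest rises, 4 lay at HmgZ on 2R, which encodes a chromatin protein of the high mobility group. The sites at 17590350 and 17590695, and those at 17592085 and 17592420, lay within 450 bp of each other. Each such pair could count the same reads, so the 4 are not separate rises. The site at 17590350 had 704.8 at cycle 13 and 29.6 at cycle 8 (log2 ratio 4.57), and the promoter site at 17592085 had 1161 at cycle 13 and 72.6 at cycle 8. All 6 sites within 5000 bp of HmgZ were higher at cycle 13, by a median log2 ratio of 3.90, and all 6 were in the cycle 13 list alone. The promoter of AP-2 on 3L, a transcription factor gene, had 1065 at cycle 13 and 78.5 at cycle 8 (log2 ratio 3.76). The others were on 3L at 11245025, on 3R at 8074130 and 12066985 and on X at 12630125, with log2 ratios of 3.99, 3.95, 3.78 and 3.78. All 10 were in the late cycle 14 list, against 87.1% of all strong arm sites and 82.5% of the sites in the cycle 13 list alone. All 10 kept a log2 ratio above 2 with 1 read per position, the lowest being 2.34 at AP-2.

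Among the same strong sites of the arms the largest falls were smaller than the largest rises and kept some cycle 13 signal. At a coding site nearest the start of CG13722 on 3L (4486431 to 4486980) the signal was 98.0 at cycle 13 (84.4 to 113.2) and 1176 at cycle 8 (1119 to 1235), a log2 ratio of -3.58 (-3.81 to -3.36). A neighbouring site on 3L at 4480790 had 360.9 at cycle 13 and 3502 at cycle 8, the largest signal among these falls. A coding site nearest Jon65Ai, a gene of the Jonah family of serine proteases of the gut, had 81.6 at cycle 13 and 834.3 at cycle 8, and a coding site nearest CG3860 had 161.6 at cycle 13 and 1434 at cycle 8. An intronic site nearest Eip75B, a nuclear receptor gene of the ecdysone response, had 60.4 at cycle 13 and 564.6 at cycle 8. The log2 ratios of the 10 largest falls ran from -3.58 to -3.09. Labels were held for 6 of them, of which 3 were coding and 3 intronic. None of the 10 was in the late cycle 14 list, against 87.1% of all strong arm sites and 1.44% of the sites in the cycle 8 list alone. With 1 read per position the log2 ratios of the 10 falls ran from -2.95 to -2.31.

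Genes known to be transcribed earliest were bound strongly in both libraries. The list of 5 early-activated genes (sc, eve, zen, CG14014 and CG18269) had 25 sites within 5000 bp, with a median log2 ratio of -0.29. Of these sites 2 were higher by 2-fold or more and 3 lower (8% and 12%, against 27.2% and 26.5% of all sites). Their median geometric mean of both signals was 1167. In the highest decile of all sites by this mean, which begins at 715.6, 24.4% were higher and 7.31% lower. Keeping 1 read per position left 1 higher and 13 lower, against 22.9% and 20.4% of all sites, with a median of -1.03. The highest decile as a whole then had a median of -0.75. The study shows these genes as examples of binding in these libraries, so the list is not independent evidence. At the promoter of sc, which encodes a proneural factor that also counts X chromosomes, the signal was 5944 at cycle 13 and 7450 at cycle 8. At the promoter of zen, a homeobox gene of the dorsal side, it was 6633 at cycle 13 and 6153 at cycle 8, while its neighbour, an intronic site closest to CG1162, had 5593 at cycle 13 and 9900 at cycle 8. At the promoter of eve, a pair-rule gene, it was 1697 at cycle 13 and 2081 at cycle 8, but the strongest of its sites had 4299 at cycle 13 and 4043 at cycle 8. Of the 25 sites 13 lay near eve, 7 of them above a log2 ratio of 0 and 6 below. The neighbouring promoters of CG14014 and CG18269 had 4935 and 2254 at cycle 13, and 7351 and 4434 at cycle 8. A list of opa and lea, which the study places at cycle 14, and HmgZ, a further locus that it shows, had 37 sites. Of these 13 were higher and 6 lower (35.1% and 16.2%, against 27.2% and 26.5% of all sites and 34.7% and 15.3% of the strong arm sites). The median was 0.50 (-0.14 with 1 read per position), and HmgZ gave 6 of the 13, among them neighbours that could share reads. At lea, which encodes a receptor of the Roundabout family, 5 of 17 sites were higher and 2 lower, and the strongest had 6430 at cycle 13 and 5206 at cycle 8.

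The genes of sex determination and of cellularization had a median log2 ratio of -0.48 over 38 sites near 9 genes. Of these sites 3 were higher and 7 lower (7.89% and 18.4%, against 27.2% and 26.5% of all sites). With scaling by reads outside sites 5 were higher and 3 lower, against 30.7% and 22.4% of all sites. With 1 read per position 2 were higher and 16 lower, against 22.9% and 20.4% of all sites, with a median of -0.79. The strong arm sites had a median of -0.46 under this setting. Near sisA, an X-linked counting gene of sex determination, the site at 11217050 had a signal of 4083 at cycle 13 and 8805 at cycle 8 (log2 ratio -1.11), and the promoter site 5245 at cycle 13 and 9238 at cycle 8 (-0.82). Near run, which acts in sex determination and as a pair-rule gene, 3 of 5 sites were lower, the strongest with 3281 at cycle 13 and 7152 at cycle 8 (-1.12). The run promoter stayed closer, with 4340 at cycle 13 and 4666 at cycle 8. At the promoter of bnk, a gene of cellularization, the signal was 6429 at cycle 13 and 10384 at cycle 8 (-0.69). The promoter of dpn, a repressor gene of the same X-counting pathway, had 10012 at cycle 13 and 9576 at cycle 8. Other members stood above the list median. Near Sxl, the switch gene of sex determination, 1 of 5 sites was higher and none lower, with a median of 0.32, and the strongest had 4312 at cycle 13 and 5035 at cycle 8. Both sites near halo were within 2-fold, with a median of 0.66, and the stronger had 5728 at cycle 13 and 4360 at cycle 8.

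**Figure D3:**
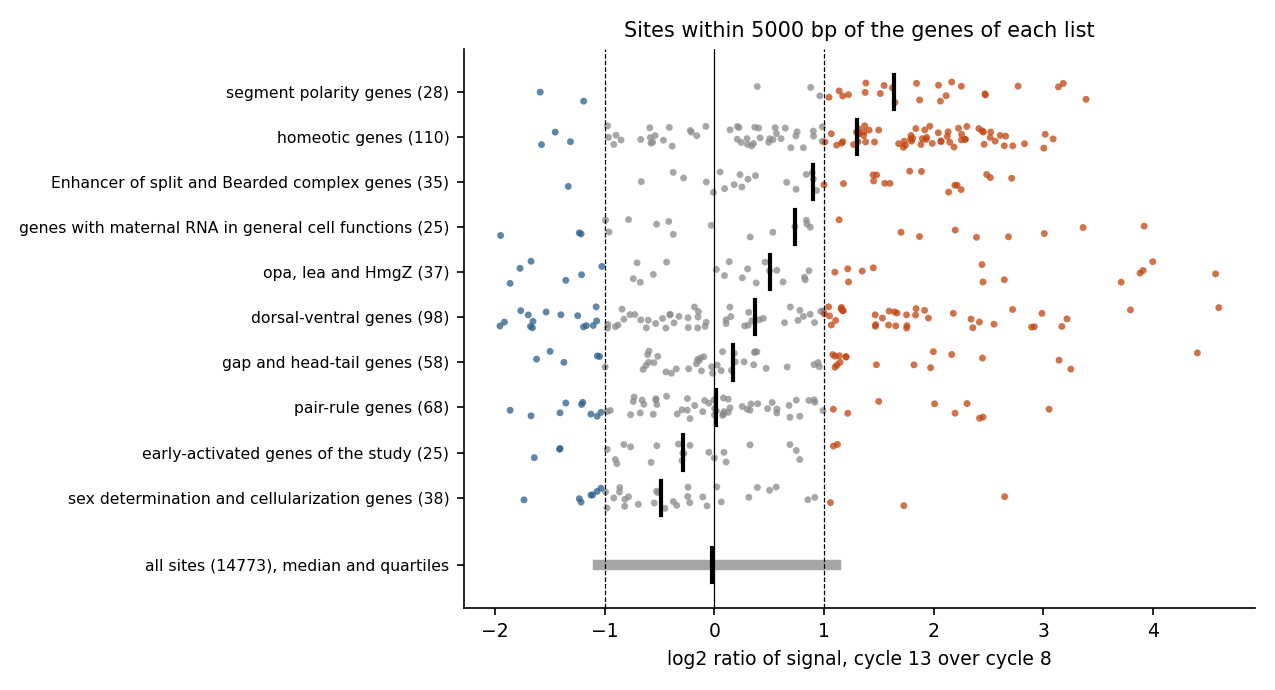
Log2 ratio of cycle 13 to cycle 8 signal at the sites within 5000 bp of the genes of each list, with 1 point per site, the number of sites in parentheses and the list median as a black bar. Red points were higher at cycle 13 by 2-fold or more, blue points lower and grey points within 2-fold; list medians run from -0.48 for sex determination and cellularization (with 1 read per position from -1.03 for the early-activated genes) to 1.64 for segment polarity, and the median of all 14773 sites was -0.02, with quartiles of -1.06 and 1.11.

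Among the genes of the segmentation cascade, those that act last stood highest. Gap and head-tail genes, which divide the embryo into broad regions, had a median log2 ratio of 0.17 over 58 sites. Of these 17 were higher and 5 lower (29.3% and 8.62%, against 27.2% and 26.5% of all sites). Pair-rule genes, which set out the stripes, had 0.01 over 68 sites, with 9 higher and 9 lower (13.2% each). With 1 read per position 22.9% of all sites were higher and 20.4% lower. The gap median was then -0.16, with 14 sites higher and 10 lower. The pair-rule median was then -0.66, with 5 sites higher and 24 lower. Under that setting the median of the strong arm sites was -0.46. With scaling by reads outside sites 13 sites near pair-rule genes were higher and 6 lower, against 30.7% and 22.4% of all sites. Segment polarity genes, which pattern each segment later, had 1.64 over 28 sites, of which 23 were higher and 2 lower (82.1% and 7.14%, against 27.2% and 26.5% of all sites). All 7 sites near wg, which encodes a Wnt ligand, were higher, the strongest with a signal of 1277 at cycle 13 and 284.5 at cycle 8. All 4 sites near en, a homeobox gene of the posterior compartment, were higher too, the strongest with 328.6 at cycle 13 and 68.9 at cycle 8. Both sites near gsb, a paired-box gene, were higher, with 882.3 and 522.0 at cycle 13 against 203.8 and 59.3 at cycle 8. Near hh, the ligand gene of the Hedgehog pathway, 5 of 9 sites were higher and 1 lower. With 1 read per position the median of the list was 1.16, with 18 sites higher and 0 lower.

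Within the earlier lists single genes stood apart. All 4 sites near knrl, the paralog of the gap gene kni, were higher, by a median log2 ratio of 2.80, whereas at kni itself 1 of 11 was higher and 2 lower, with a median of -0.44. The strongest site near ems, a head gap gene, had 769.4 at cycle 13 and 80.8 at cycle 8, while its 2 other sites were lower. The strongest site near the pair-rule gene prd was nearly equal, with 6464 at cycle 13 and 6097 at cycle 8, but its promoter had 3046 at cycle 13 and 664.6 at cycle 8 (log2 ratio 2.20, or 0.05 with 1 read per position). At opa, a pair-rule gene of cycle 14, 2 of 14 sites were higher and 4 lower. The strongest, labelled intergenic, had 5960 at cycle 13 and 3276 at cycle 8 (0.86, or -1.03 with 1 read per position). Near tll, a gene of the embryo's ends, the strongest site had 5041 at cycle 13 and 7761 at cycle 8, and a site at 26676845 had 261.8 at cycle 13 and 804.7 at cycle 8.

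Homeotic genes, which give segments their identity, had a median log2 ratio of 1.30 over 110 sites. Of these 62 were higher and 3 lower (56.4% and 2.73%, against 27.2% and 26.5% of all sites). The rises were most numerous at Antp, where 27 of 32 sites were higher and none lower, with median signals of 248.8 at cycle 13 and 79.3 at cycle 8. At Abd-B 5 of 6 sites were higher, the strongest with 1966 at cycle 13 and 412.0 at cycle 8 (2.25, or 0.77 with 1 read per position), and at lab 4 of 4. At Ubx 13 of 28 were higher and 1 lower, and at abd-A 5 of 18 were higher, with the strongest site at 6601 at cycle 13 and 4984 at cycle 8. At pb the median was -0.21, and its strongest site, which is nearest zen2, had 3743 at cycle 13 and 7346 at cycle 8. With 1 read per position the median of the homeotic list was 0.83, with 47 sites higher and 5 lower.

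**Figure D4:**
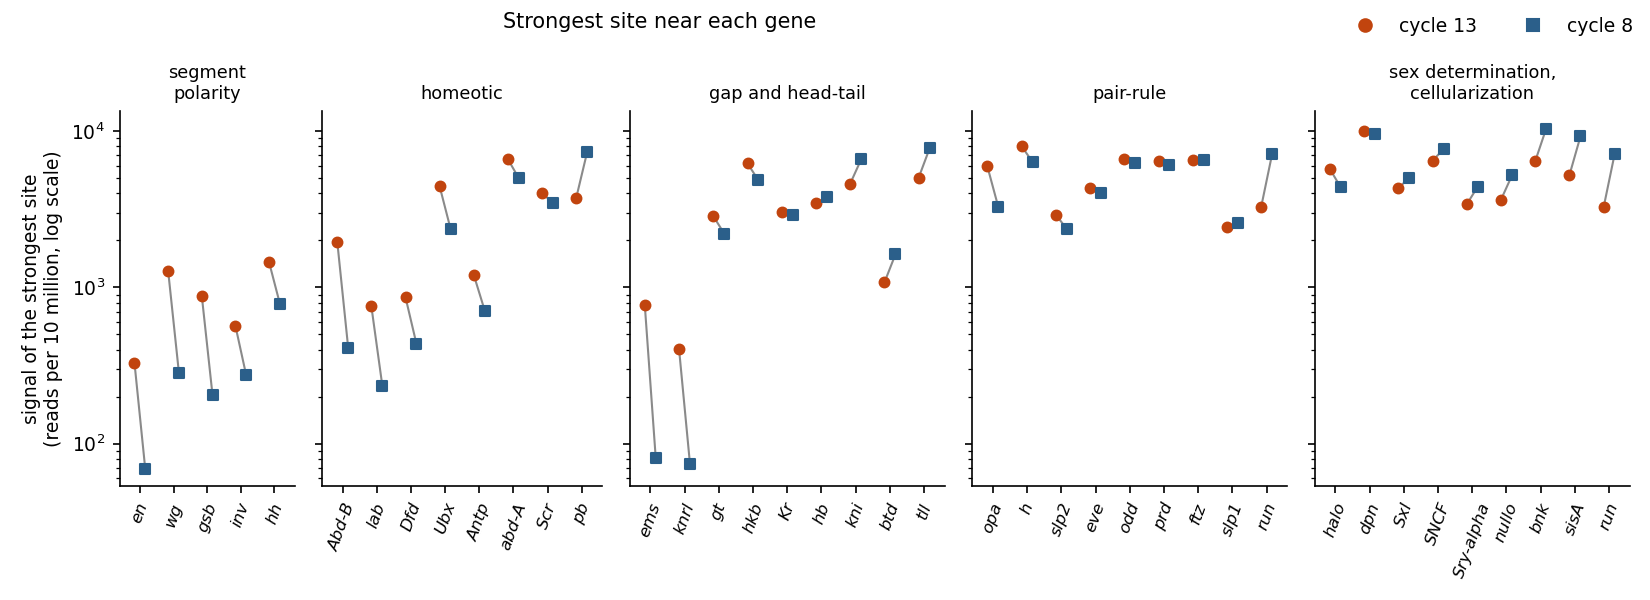
Signal of the strongest site within 5000 bp of each gene of 5 lists, in reads per 10000000 on a log scale, with cycle 13 as circles on the left and cycle 8 as squares on the right of each pair. The strongest sites of the 5 segment polarity genes all had more signal at cycle 13, from 328.6 at en to 1448 at hh. The hh site lay within 2-fold (log2 ratio 0.88, or -0.10 with 1 read per position). The strongest sites near pair-rule genes were strong in both libraries, from 2447 at slp1 to 8015 at h at cycle 13 and from 2369 at slp2 to 7152 at run at cycle 8.

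Genes of the dorsal-ventral axis were mixed, with 38 of 98 sites higher and 15 lower. These shares of 38.8% and 15.3% compare with 27.2% and 26.5% of all sites and 34.7% and 15.3% of the strong arm sites. The median log2 ratio was 0.38, or -0.15 with 1 read per position, when 27 sites were higher and 24 lower. At sna, which acts in the mesoderm, 2 of 12 sites were higher and 4 lower, and the strongest had 4264 at cycle 13 and 5648 at cycle 8. The T-box gene Doc3 had 4 of 4 sites higher, with 2242 at cycle 13 and 340.1 at cycle 8 at its promoter (2.72, or 0.77 with 1 read per position), and ind, a homeobox gene of the neural ectoderm, had 5 of 5. The promoter of brk, a repressor of Dpp targets, had 786.9 at cycle 13 and 87.4 at cycle 8 (log2 ratio 3.17). Near genes of the Enhancer of split and Bearded complexes, which act in Notch signalling, 16 of 35 sites were higher and 1 lower (45.7% and 2.86%, against 27.2% and 26.5% of all sites), with a median of 0.90. Counted at 1 read per position, 14 were higher and 7 lower, with a median of 0.32. In the list of genes with maternal RNA the median was 0.74 over 25 sites. Its members differed, since 3 of 4 sites near Act5C, a cytoplasmic actin gene, were higher, the strongest with 448.8 at cycle 13 and 29.6 at cycle 8. At the promoter of stg, which encodes the Cdc25 phosphatase, the signal was 151.6 at cycle 13 and 584.6 at cycle 8 (-1.95). Neighbouring genes share sites, so that the lists overlap in part.

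By annotation, coding sites leaned least to cycle 13. Labels were taken from the held rows of a peak table made from pooled reads, which matched 1757 sites, 690 of them higher at cycle 13 by 2-fold or more (39.3%) and 78 lower (4.44%). That table ranks peaks by reads pooled over all stages of the series, and the share of each stage in the pool was not examined. Of its matched sites 97.2% had a late cycle 14 peak, against 54.1% of all sites and 87.1% of the strong arm sites. Its level may therefore lean to the later stages, and groups of its sites are compared only with each other. The median log2 ratio was 0.88 at 652 intronic sites, 0.69 at 544 intergenic sites, 0.57 at 286 promoter sites and 0.11 at 224 coding sites. Promoter sites had a median signal of 1957 at cycle 13 and 1257 at cycle 8, and coding sites 1439 at cycle 13 and 1446 at cycle 8. Of the coding sites 45 were higher and 30 lower, and of the promoter sites 109 were higher and 5 lower. The order was the same among the 1500 sites with the highest geometric mean of both signals, a set chosen after the values were seen, with medians of 0.54, 0.30, 0.28 and -0.11. With 1 read per position all 4 medians were negative, and the coding sites were again lowest at -0.83. Promoter sites of genes classed as maternal only had a median of 0.71 (66 sites, 30 higher and 0 lower). Those of genes classed as both maternal and zygotic had 0.61 (42 sites, 14 higher and 1 lower). Those of zygotic genes had 0.56 (149 sites, 58 higher and 2 lower). With 1 read per position these medians were -0.41, -0.78 and -0.59.

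Among the 1757 sites matched to the pooled table, the difference between the stages followed the accessibility of the DNA. The same table gives for each peak a DNaseI value measured at cycle 14 in another study, which was used here only to sort the sites into 4 quartiles of equal size, a choice made after the values were seen. From the lowest to the highest quartile the median log2 ratio was -0.15 (0.026 with scaling by reads outside sites), 0.72, 1.08 and 1.20. Sites higher by 2-fold or more numbered 39, 171, 232 and 248, and sites lower 73, 4, 1 and 0. Cycle 13 signal climbed across the quartiles, with medians of 1011, 1400, 1720 and 2527, whereas cycle 8 signal did not, with 1282, 813.5, 838.7 and 1030. Across the 1757 sites, which are not replicates, the Spearman coefficient with accessibility was 0.45 for cycle 13 signal, -0.07 for cycle 8 signal and 0.49 for the log2 ratio. These sites are the highest of the pooled peaks, which limits the range of signal, so the coefficients describe this set only. The lowest quartile also had the lowest median within each label, and among coding sites the medians of the quartiles were -0.90, -0.06, 0.32 and 0.95. Among the 1500 highest sites the quartiles had medians of -0.51, 0.28, 0.70 and 0.87. With 1 read per position they were -0.85, -0.34, -0.25 and -0.26 in the pooled table, so that the lowest quartile stayed lowest while the other 3 lay close together. The accessibility is that of cycle 14, which overlaps the cycles of the cycle 13 embryos and not those of cycle 8.

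**Figure D5:**
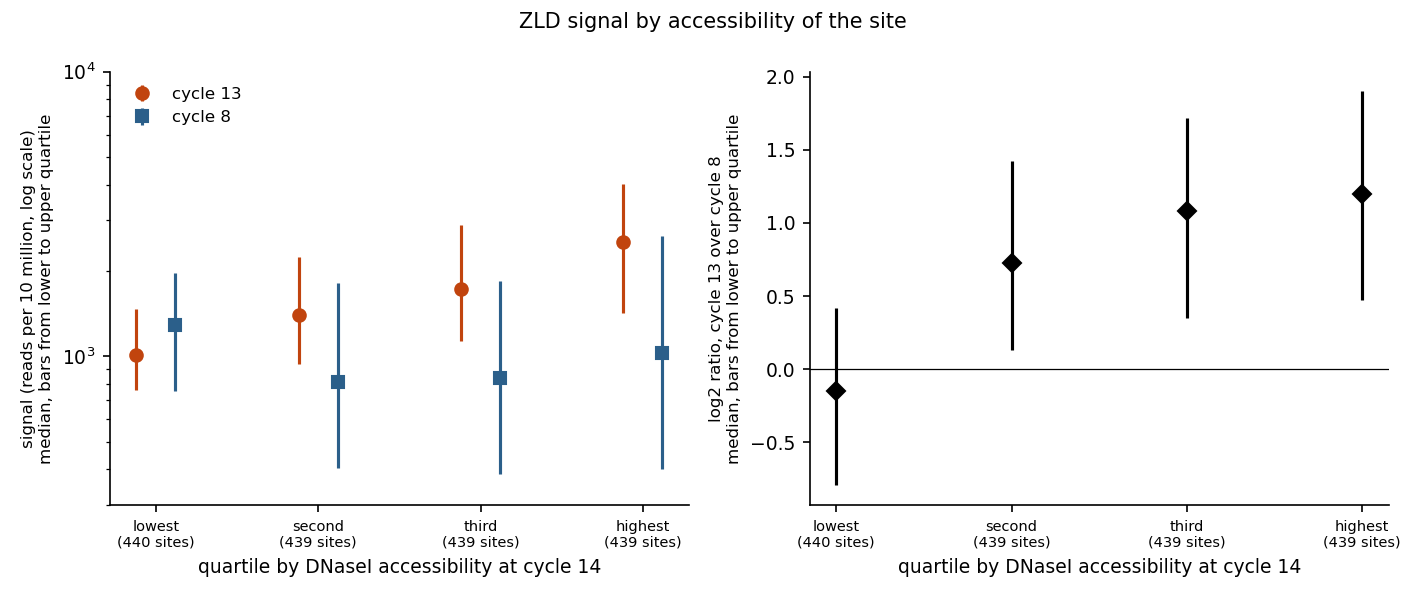
ZLD signal by quartile of DNaseI accessibility at cycle 14, over the 1757 sites matched to the pooled peak table. Left, median signal in reads per 10000000 (log scale) at cycle 13 (circles) and cycle 8 (squares); right, median log2 ratio; bars run from the lower to the upper quartile of sites, and the median log2 ratio climbs from -0.15 in the lowest quartile (0.026 with scaling by reads outside sites) to 1.20 in the highest.

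The chromosomes were alike except for the smallest and the heterochromatic sequence. Median log2 ratios of the arms lay between -0.07 on 2L and 0.10 on X. On chromosome 4, which is small and rich in heterochromatin, 46 of 126 sites were higher and 11 lower. These are 36.5% and 8.73%, against 27.2% and 26.5% of all sites. Median signals on chromosome 4 were 144.1 at cycle 13 and 108.5 at cycle 8. Its median log2 ratio was 0.61, but reads between its sites also leaned to cycle 13, by 0.15, against -0.30 on all arms. On heterochromatic and unplaced sequence 37 of 390 sites were higher and 171 lower (9.49% and 43.8%), with medians of 91.7 at cycle 13 and 139.3 at cycle 8 and a median log2 ratio of -0.79. Between its sites the log2 ratio was -0.40. The heterochromatin of X went the other way, with 7 of 11 sites higher and 1 lower (63.6% and 9.09%). The single site on the mitochondrial genome had 4.77 at cycle 13 and 79.3 at cycle 8.

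Neighbouring sites changed alike. Between adjacent sites 450 to 1000 bp apart, too far for a read to count at both, the Spearman coefficient of the log2 ratios across 2224 pairs was 0.67. It was 0.52 at 1000 to 2000 bp, 0.37 at 2000 to 5000 bp, 0.28 at 5000 to 10000 bp, 0.19 at 10000 to 20000 bp and 0.13 at 20000 to 50000 bp. Pairs that moved in opposite directions, each by 2-fold or more, made up 2.07% in the nearest of these classes and 11.4% in the farthest. A further 799 pairs lay within 450 bp and could share reads, and in 135 of them each site was in 1 list alone, so that 1 bound region can count under both lists where its midpoints differ. Membership and signal could then disagree, as at a site of the cycle 13 list alone near sna, at 15481140, with a signal of 408.6 at cycle 13 and 1539 at cycle 8. In all, 24 sites of the cycle 13 list alone were lower by 2-fold or more, and 18 of the cycle 8 list alone were higher.

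Many regions leaned one way over 100000 bp. Windows of this size were examined after the values were seen, and 879 held 8 or more sites. The median log2 ratio was 1 or more in 118 of them and -1 or less in 117. The highest window, on 2R from 8800000, held 32 sites, 22 of them higher and 3 lower, with median signals of 238.7 at cycle 13 and 65.6 at cycle 8. In the window on 3R from 2800000, where Antp lies, 19 of 20 sites were higher, and on 3R from 12700000, where Abd-B lies, 23 of 31 were higher and 1 lower. On X from 7200000, where brk lies, all 8 were higher. The lowest window, on 3L from 4400000, held 26 sites, 1 higher and 19 lower, with medians of 112.3 at cycle 13 and 373.8 at cycle 8, and includes the falls at 4480790 and at CG13722.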

How the data were processed

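ZLD was precipitated from hand-sorted embryos and sequenced once per stage. The labels name Bowtie 0.12.5 and builds dm3 and BDGP5, and the study kept reads with a unique place. The deposited read files hold 1 mapped read per line with a score field that was not used. The deposited peak lists give intervals and a height, a coverage signal that the authors made by extending reads to 150 bp, scaling each library and calling peaks per library.

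From these files, reads were extended to 150 bp, counted with copies over each midpoint plus or minus 150 bp and scaled to 10000000 (Python 3.11.15, numpy 2.4.6, pandas 2.3.3, scipy 1.17.1). Read numbers under 3 were set to 3 in log2 ratios. The counting was tested on simulated data. With 1 library per stage no test was made. Intervals at 95% are exact Poisson for signals, exact binomial for shares and their conditional form for ratios. Windows away from sites lay at least 2000 bp from any site.

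Labels, nearest starts, gene positions (dm3), expression classes and DNaseI ranks came from the study's tables, held in part as 1758 pooled peak rows, 1758 cycle 13 rows, 1761 cycle 8 rows and 1459 genes, and a row was matched to a site within 150 bp. Their measured values are not reported. Site sequences were not analysed here.

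Named sites were the 5 highest, the 10 largest rises and falls on the arms at a signal of 500 or more, the highest and promoter sites of the first 2 gene lists, the extremes of the other lists and the 5 nearest to equal signal among the 200 highest. Other genes and sites named were chosen after their values were seen. The sites, 10 gene lists and rules were chosen with earlier results of these data known, and the first 2 lists follow the study's own examples from these libraries.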

Additional observations from a re-analysis of the deposited data

How the results depend on the processing

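Every result rests on 1 library per stage, 1.97 reads per occupied position at cycle 13 and 4.27 at cycle 8, with no input library analysed here, so that depth, copying, chromatin amount and stage cannot be told apart. Leaving out a library was not possible. No paired analysis was possible because each stage had 1 library. Windows of plus or minus 75 or 250 bp, a floor of 10 reads, background subtraction, median-of-ratios scaling, joining within 50 or 300 bp, overlapping intervals and the arms alone moved no count over all sites or of list membership by over 1.5 times and no median beyond its 95% interval over sites. Small counts near gene lists moved more, to 1 higher near early-activated, 3 lower near gap and 0 lower near Enhancer of split genes at 250 bp, and 5 lower near genes with maternal RNA at 75 bp and with background subtraction. The comparison by motif was not run, since site sequences were not analysed here.

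Keeping 1 read per position and strand turned the sign of medians at promoter (-0.60), intronic (-0.29) and intergenic sites (-0.45), at promoters of zygotic (-0.59) and maternal genes (-0.41), in the quartile of highest accessibility (-0.26) and near opa, lea and HmgZ (-0.14). It moved others to -0.12 over all sites, -0.83 at coding sites, -0.85 in the lowest quartile of accessibility, -1.03 near early-activated, -0.16 near gap, -0.66 near pair-rule and -0.15 near dorsal-ventral genes, 0.83 near homeotic and 1.16 near segment polarity genes, and the relation of adjacent sites at 450 to 1000 bp to 0.61. This count cannot pass 900 in a window, a limit nearer at cycle 13. Scaling by reads outside sites raised log2 ratios by 0.18 and gave medians of 0.16 over all sites, 0.27 on X, -0.62 on heterochromatic sequence, 0.28 at coding, 0.87 at intergenic and 1.06 at intronic sites, and 1.37 and 0.026 in the highest and lowest quartiles of accessibility, the last turned in sign; sites higher then numbered 4542 and lower 3312. Restriction to sites at or above the median signal in either library gave a median of 0.19 and 2355 sites lower. Keeping only peaks no lower than their own list median left 3548 sites in both, 1689 of cycle 13 only and 2139 of cycle 8 only. In the 1500 highest sites, chosen after seeing the data, medians were 0.28 at promoter, 0.54 at intronic, 0.30 at intergenic and -0.11 at coding sites, and 0.87 and -0.51 in the highest and lowest quartiles of accessibility. Of 74 named sites past 2-fold, none changed sign under any of these 7 settings that were run on single sites. Some of the 74 were named for the size of their ratio, so a kept sign says little about other sites. Named sites within 2-fold are not in this count. Some of those did change sign with 1 read per position, among them the strongest near opa, lea and h. Of the 74, 62 stayed past 2-fold with 1 read per position and 69 with scaling by reads outside sites. Over all 115 named sites the log2 ratio left its counting interval at 88 with 1 read per position and at 51 with scaling by reads outside sites. It did so at 23 with background subtraction, and at 14 and 15 with windows of plus or minus 75 and 250 bp.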
